A study of Mus musculus with 2 samples.

Results

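Endothelins and adrenomedullin are secreted vasoactive peptides, and the genes described here encode the peptides, the protease that activates endothelins, and their receptors. The members were the 10 genes Edn1, Edn2, Edn3, Ece1, Ednra, Ednrb, Adm, Calcrl, Ramp2 and Ramp3, found by gene symbol in the tables of reads per gene. Of these, 9 were among the 17431 genes with a read in either library, and Edn2 had no row. Poly(A) RNA was measured in 2 libraries of cultured cells from the dermis of BALB/c mice. One came from fibroblasts of mice at postnatal day 3, kept in DMEM with 10% fetal bovine serum. The other came from skin-derived precursors (SKPs), multipotent dermal cells enriched by culture with growth factors, taken at postnatal day 4 and kept in DMEM/F12 with FGF2 (40 ng/ml), EGF (20 ng/ml) and 2% B27. Each cell type was 1 library of cultured cells, so no difference below has a replicate check, and cell type cannot be told apart from medium, growth factors and age.

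Endothelins are cut from larger precursors, and the last cut is made by the membrane protease encoded by Ece1. The peptides act on a pair of G protein-coupled receptors: Ednra, which prefers endothelin 1 and endothelin 2, and Ednrb, which binds all endothelins and is needed in the neural crest for pigment cells and enteric neurons. Adrenomedullin, the product of Adm, acts on the receptor encoded by Calcrl only when it is paired with a receptor activity-modifying protein (RAMP): with Ramp2 or Ramp3 the complex prefers adrenomedullin, and with Ramp1 it prefers calcitonin gene-related peptide. In skin and its vessels these peptides are known for control of vascular tone, for signalling to fibroblasts and for support of melanocytes.

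All 9 members with reads differed by at least 2-fold between the libraries. Levels are given as RPKM (reads per kilobase of gene length, scaled to the counted reads of the library), and intervals in parentheses are 95% exact (Clopper-Pearson) intervals, which cover counting error only. Genes counted as expressed when either library reached RPKM 1 with no fewer than 20 reads. Such a gene was called higher in a library when its levels were 2-fold or more apart and the interval did not include equality. By that rule 5 members (Edn3, Ednra, Calcrl, Ramp2, Ramp3) were higher in the SKP library, where 12.1% of the 12053 expressed genes were called higher. The other 4 (Edn1, Ece1, Ednrb, Adm) were higher in the fibroblast library, where 6.41% of the expressed genes were called higher. The median absolute log2 ratio was 3.37 over the 9 members and 0.37 over all expressed genes. The members were chosen with earlier results of these data known, so their contrast with all expressed genes is a description only. Edn1 and Edn3 passed the expression filter in a single library each, so the filter favoured a difference, whereas the other 7 passed it in both. In bulk RNA, fewer cells that make a transcript and less of it per cell cannot be told apart.

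**Figure D1:**
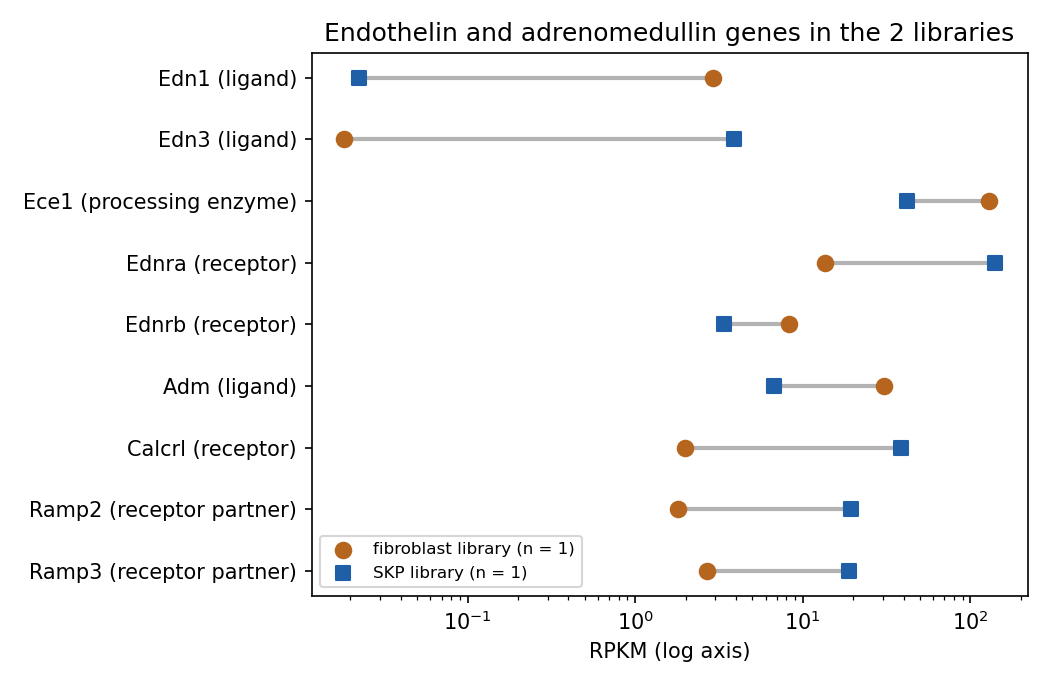
Level of each member with reads, in RPKM on a log axis, in the fibroblast library (circles) and the SKP library (squares), 1 library per group, joined by a grey line. Receptor genes other than Ednrb lie further right in the SKP library, and Edn1, Ece1 and Adm lie further right in the fibroblast library.

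The endothelin ligand differed in kind between the libraries. Edn1 (gene ID 13614), which encodes endothelin 1, the vasoconstrictor first known from endothelium, had 126 reads (2.92 RPKM) in fibroblasts and 1 read (0.0225 RPKM) in SKPs. It was 129.7-fold higher in fibroblasts (22.9 to 5164), and 8 of the expressed genes had a lower ratio of SKP over fibroblast. Edn3 (13616), whose peptide signals to neural crest derivatives, showed the opposite, with 1 read (0.0183 RPKM) in fibroblasts and 217 reads (3.86 RPKM) in SKPs. It was 210.8-fold higher in SKPs (37.4 to 8363), and 16 expressed genes had a higher ratio. Both of these ranks rest on 1 read and on a floor that sets 0 reads to 3. The floor makes ratios of genes with 0 reads in a library smaller. Cpa3, with 0 fibroblast reads and 330 SKP reads, was thus given 106.8-fold and ranked below Edn3. Reads lay along most of each transcript where it was detected, over 75.4% of the length of Edn1 in fibroblasts and 87.2% of that of Edn3 in SKPs. Edn2 had 0 reads in both libraries, which allows up to 3 reads in each. The summed level of the family was 2.94 RPKM in fibroblasts and 3.89 RPKM in SKPs. Edn1 made up 99.4% of that sum in fibroblasts and 0.579% in SKPs.

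The promoters of this pair are shown because the libraries differed most in these ligands. Both come from RefSeq (build GRCm38.p6, 250 bases before the start site to 50 after it, plus strand), at chr13:42301226-42301525 for Edn1 and chr2:174760369-174760668 for Edn3. Capitals mark matches, on either strand, to short letter strings linked to known factors. These are ACGTG and, as its variant, GCGTG for hypoxia-inducible factors, TGACTCA and, as its variant, TGACTAA for AP-1, then AGATAA for the GATA family, GGAATG for TEAD factors and lastly TATAA for the TATA box.
Edn1: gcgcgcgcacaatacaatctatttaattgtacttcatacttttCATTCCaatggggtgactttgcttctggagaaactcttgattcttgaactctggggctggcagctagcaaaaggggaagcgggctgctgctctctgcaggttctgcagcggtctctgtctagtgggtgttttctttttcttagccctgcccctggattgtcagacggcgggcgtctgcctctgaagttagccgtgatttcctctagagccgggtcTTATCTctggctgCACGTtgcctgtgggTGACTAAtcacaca
Edn3: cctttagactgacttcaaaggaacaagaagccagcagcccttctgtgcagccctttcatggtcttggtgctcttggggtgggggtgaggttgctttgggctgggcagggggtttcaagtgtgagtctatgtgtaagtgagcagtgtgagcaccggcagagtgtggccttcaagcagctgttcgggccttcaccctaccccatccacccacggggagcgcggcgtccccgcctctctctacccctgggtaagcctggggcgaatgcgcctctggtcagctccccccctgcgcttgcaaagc
The Edn1 window held 4 matches, with GGAATG at -207, AGATAA at 8, ACGTG at 21 and TGACTAA at 36, counted from the start site as 0 to the first base of the match. Among 32851 promoter windows of the same length, 14.7% held GGAATG, 11.2% AGATAA, 19.6% ACGTG and 2.35% TGACTAA. The Edn3 window held none of these letters. A match is a description of the sequence only.

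Ece1 (230857) was the most abundant member in the fibroblast library, at 11490 reads (128.6 RPKM) against 3881 reads (42.2 RPKM) in the SKP library. It was 3.05-fold higher in fibroblasts (2.94 to 3.16). Among all genes by RPKM it ranked 482 in fibroblasts and 1715 in SKPs, so the converting enzyme was well detected in both libraries. Within each library its level exceeded that of the prevailing ligand, 44.0 times that of Edn1 in fibroblasts (36.9 to 52.9) and 10.9 times that of Edn3 in SKPs (9.52 to 12.6).

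The endothelin receptors differed in opposite directions. Ednra (13617) had 910 reads (13.6 RPKM) in fibroblasts and 9690 reads (140.4 RPKM) in SKPs, a 10.3-fold difference (9.66 to 11.1), and was the most abundant member there. Its rank among all genes was 4904 in fibroblasts and 425 in SKPs. Ednrb (13618) had 607 reads (8.27 RPKM) in fibroblasts and 258 reads (3.41 RPKM) in SKPs, and was 2.42-fold higher in fibroblasts (2.09 to 2.81). In fibroblasts both receptors were thus present, with 1.64 times as much Ednra as Ednrb (1.48 to 1.82). In SKPs Ednra stood at 41.1 times the level of Ednrb (36.3 to 46.7). The library with Edn3 as its endothelin RNA was therefore the one with less RNA of Ednrb.

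The RefSeq promoter of Ednra, the most abundant receptor gene here, is shown for comparison with the ligands. It lies on the minus strand at chr8:77724403-77724702 of GRCm38.p6 and held no match to the letters above, so none of it is in capitals.
Ednra: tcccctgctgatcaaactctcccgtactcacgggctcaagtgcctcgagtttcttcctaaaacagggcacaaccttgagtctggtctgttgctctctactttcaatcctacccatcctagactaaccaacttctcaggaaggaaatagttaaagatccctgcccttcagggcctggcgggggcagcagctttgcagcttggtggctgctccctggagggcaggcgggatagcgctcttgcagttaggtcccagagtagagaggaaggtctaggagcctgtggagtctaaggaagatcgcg

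**Figure D2:**
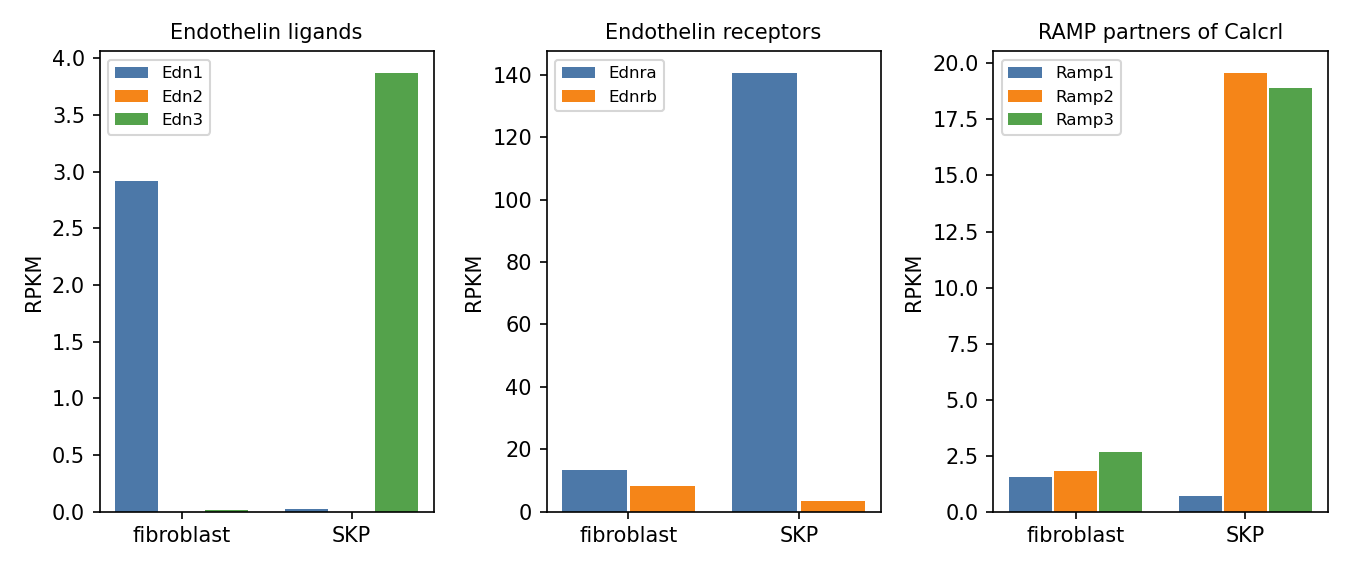
Levels (RPKM, bars from 0, 1 library per group) of the endothelin ligands, the endothelin receptors and the RAMP genes in each library. Edn1 is the visible ligand bar in fibroblasts and Edn3 in SKPs, Ednra reaches 140.4 RPKM in SKPs, and Ramp2 and Ramp3 are higher there while Ramp1 is lower.

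The adrenomedullin system was divided between ligand and receptor. Adm (11535), which encodes a vasodilator peptide made by many stromal cells, had 776 reads (30.5 RPKM) in fibroblasts and 176 reads (6.73 RPKM) in SKPs, and was 4.54-fold higher in fibroblasts (3.85 to 5.38). Calcrl (54598), the receptor itself, had 173 reads (1.97 RPKM) in fibroblasts and 3461 reads (38.4 RPKM) in SKPs. It was 19.4-fold higher in SKPs (16.7 to 22.8). Adm RNA stood at 15.5 times the level of Calcrl in fibroblasts (13.1 to 18.3) and at 0.175 times that level in SKPs (0.150 to 0.204). The higher level of ligand and the higher level of receptor were therefore in different libraries.

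The RAMP genes that give Calcrl its adrenomedullin preference were higher where Calcrl was higher. Ramp2 (54409) had 29 reads (1.81 RPKM) in fibroblasts and 323 reads (19.5 RPKM) in SKPs, a 10.8-fold difference (7.39 to 16.4). Ramp3 (56089) had 60 reads (2.67 RPKM) in fibroblasts and 437 reads (18.9 RPKM) in SKPs, a 7.07-fold difference (5.39 to 9.43). The level of Ramp2 over that of Ramp3 was 0.677 in fibroblasts (0.419 to 1.07) and 1.03 in SKPs (0.894 to 1.20), and both intervals included equality. Ramp1, the partner for calcitonin gene-related peptide, was 2.21-fold higher in fibroblasts (1.45 to 3.43), with 73 reads (1.56 RPKM) in fibroblasts and 34 reads (0.704 RPKM) in SKPs. It took 25.8% of the summed RPKM of the RAMP genes in fibroblasts and 1.80% in SKPs. Relative to Calcrl the partners were fewer in SKPs: Ramp2 stood at 0.915 times Calcrl in fibroblasts (0.595 to 1.36) and 0.510 times in SKPs (0.453 to 0.571). For Ramp3 the values were 1.35 (0.991 to 1.82) and 0.492 (0.445 to 0.544).

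The Adm promoter, of the ligand gene that was higher in fibroblasts beside Edn1, lies on the plus strand at chr7:110627407-110627706 of GRCm38.p6, with matches in capitals as above.
Adm: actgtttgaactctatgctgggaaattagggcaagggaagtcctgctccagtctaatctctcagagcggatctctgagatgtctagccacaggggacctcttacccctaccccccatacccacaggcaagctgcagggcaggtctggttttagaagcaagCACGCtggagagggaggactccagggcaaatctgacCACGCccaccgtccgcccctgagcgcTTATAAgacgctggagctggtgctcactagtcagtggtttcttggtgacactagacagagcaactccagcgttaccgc
It held GCGTG at -90 and -54, and overlapping TATAA matches on opposite strands at -28 and -27. A window with GCGTG was found for 32.4% of promoters and one with TATAA for 24.9%. The table held 12 promoter entries for 9 members, and Ramp2 had no entry. The string GCGTG was found in members higher in either library, and so was the string for TEAD factors. Every other string found was in members higher in fibroblasts only. Whether matches went with the direction of the members was not tested. Of those higher in SKPs, Calcrl held GCGTG at 21, and Ramp3 held GCGTG at -219 and -65 and GGAATG at -228. Of those higher in fibroblasts, Ednrb held GCGTG at -99 and 31. The last of the 4 Ece1 entries held no match, and the others held GCGTG. Entry 3 of Ece1 also held ACGTG at -90 and -89. Edn2, which had no reads, held GCGTG at -219.

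**Figure D3:**
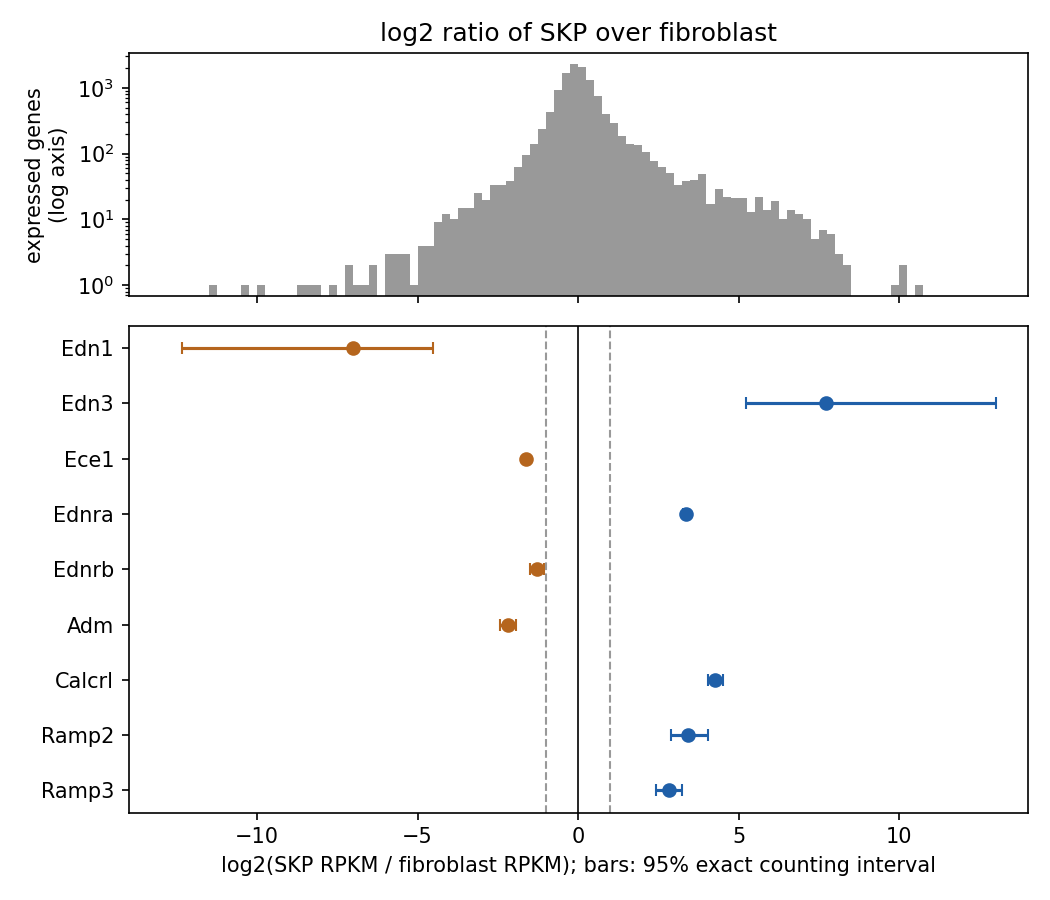
Top, number of expressed genes (log axis) by log2 ratio of SKP over fibroblast RPKM; bottom, the same ratio for each member, with 95% exact counting intervals and dashed lines at 2-fold. The wide bars of Edn1 and Edn3 come from 1 read in one library, and 5 members lie to the right of the upper dashed line and 4 to the left of the lower one.

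Other genes of endothelin signalling were called in both directions. Of 23 such genes (other converting enzymes and proteases, G protein and phospholipase C genes downstream of the receptors, and regulators of G protein signalling), 19 were expressed, 5 were called higher in SKPs, 2 in fibroblasts and 12 in neither. Over all expressed genes the shares called were 12.1% and 6.41%. The list's median log2 ratio was 0.06 against -0.01 over all expressed genes. The couplers of the receptors were among those under 2-fold apart, with Gna11 at 50.02 RPKM in fibroblasts and 51.1 in SKPs and Gna12 at 51.4 and 69.7. Higher in SKPs were Mme, which encodes neprilysin, a protease that degrades vasoactive peptides (5.32 RPKM in fibroblasts and 22.8 in SKPs, 4.29-fold, 3.86 to 4.79), and the mast cell chymase gene Cma1 (1 read and 285 reads). Rgs5 (0.150 and 1.08 RPKM) and, named after their values were seen, Rgs2 (6.97 and 27.9 RPKM) and the calcium channel gene Itpr2 (2.34 and 5.03 RPKM) made up the 5. Higher in fibroblasts were Rgs4, an inhibitor of Gq signalling (8.93 RPKM and 0.679 in SKPs, 13.1-fold, 9.44 to 18.8), and Plcb4, a phospholipase C (3.37 and 0.758 RPKM).

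Of 24 genes around adrenomedullin (related peptides and receptors, the amidating enzyme Pam, adenylyl cyclases and protein kinase A), 18 were expressed. Of these, 7 were called higher in SKPs (12.1% of all expressed genes were), 1 in fibroblasts (6.41% were) and 10 in neither. Their median log2 ratio was 0.47. The 1 gene higher in fibroblasts was Ramp1. Calcrl acts through cyclic AMP, which adenylyl cyclases make. Of 8 expressed adenylyl cyclase genes 4 were called higher in SKPs, 0 in fibroblasts and 4 in neither, a subset of the list counted after its values were seen. Prkacb, a catalytic subunit of protein kinase A, stood at 25.6 RPKM in fibroblasts and 116.5 in SKPs (4.54-fold, 4.33 to 4.77), and the adenylyl cyclase gene Adcy5 at 1.08 and 5.48 RPKM (5.05-fold, 4.07 to 6.31). Adcy8 had 1 read in fibroblasts and 126 in SKPs. Mme belongs to this list as well. The stimulatory G protein gene Gnas (584.2 RPKM in fibroblasts and 524.9 in SKPs) and Prkaca (60.0 and 69.0) were under 2-fold apart.

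Edn1 is known to respond to serum, TGF-beta and mechanical signals, and Adm to hypoxia, so genes linked to these inputs were counted as lists. The lists mix genes that respond to the inputs with factors and ligands that carry them, such as Hif1a, Epas1, Srf, Yap1 and Tgfb1. Of 12 serum, TGF-beta and YAP genes, all expressed, 7 were called higher in fibroblasts (6.41% of all expressed genes were), 1 in SKPs (12.1% were) and 4 in neither. Their median log2 ratio was -1.38. Ctgf stood at 110.4 RPKM in fibroblasts and 5.26 in SKPs and the YAP target Amotl2 at 89.6 and 4.70, whereas Tgfb1 itself was higher in SKPs (75.6 and 173.9). Of 11 expressed hypoxia genes, 2 were called higher in fibroblasts (6.41% of all expressed genes were), 0 in SKPs (12.1% were) and 9 in neither. Their median log2 ratio was -0.56. The 2 were Vegfa (55.5 RPKM in fibroblasts and 25.6 in SKPs) and Epas1 (8.01 and 3.63), and Hif1a stood at 81.1 and 48.1. Some hypoxia genes went the other way by less than 2-fold, among them Egln3 (3.87 and 6.92) and Slc2a1 (39.2 and 53.6). The part of these inputs in the levels of Edn1 and Adm was not tested.

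**Figure D4:**
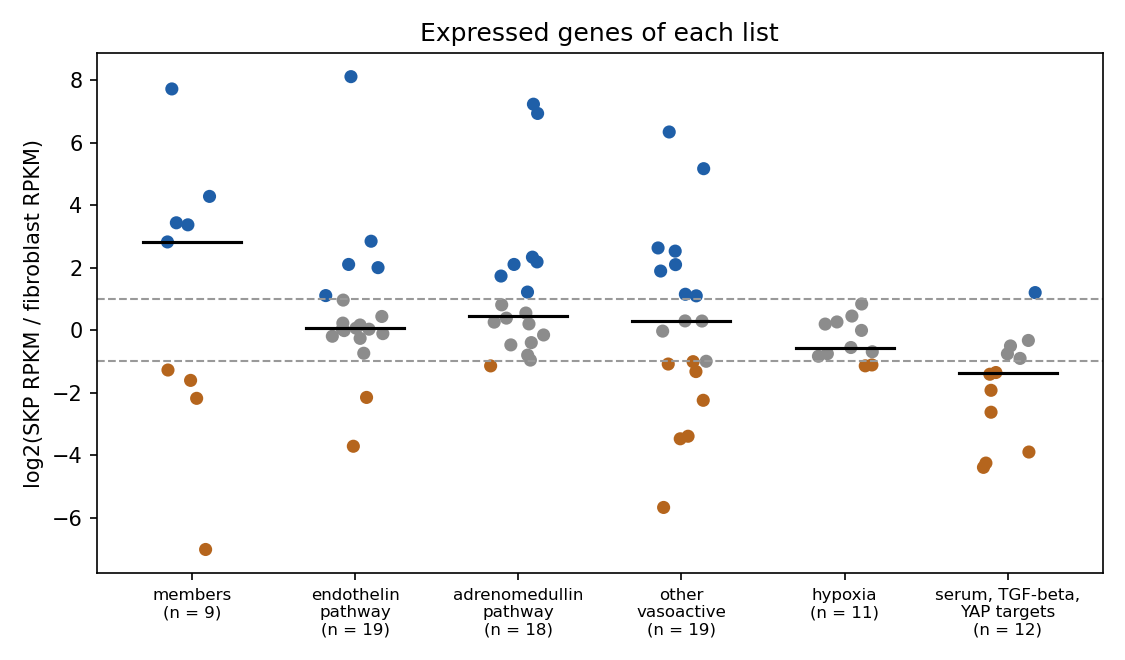
log2 ratio of SKP over fibroblast RPKM for each expressed gene of the members and of 5 lists, with the median as a black line and dashed lines at 2-fold; blue points are 2-fold or more higher in SKPs and brown points 2-fold or more higher in fibroblasts. The endothelin pathway centres near 0, and most serum, TGF-beta and YAP genes lie below 0.

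Markers of other cell types were measured beside the members. Calcrl and Ramp2 are abundant in endothelium. The 12 endothelial markers summed to 5.37 RPKM in fibroblasts and 9.90 in SKPs, of which Flt1 (3.03 and 3.94) and Cdh5 (0.787 and 3.57) were the most abundant. Only 2 were expressed. Of these 1, Cdh5, was called higher in SKPs (12.1% of all expressed genes were) and 0 in fibroblasts (6.41% were). Below the filter, Erg had 1 and 24 reads, whereas Kdr (55 and 34 reads) and Vwf (75 and 34 reads) went the other way. Sox17 had 0 reads in both. The part of endothelial cells in the levels of Calcrl and Ramp2 was not tested. The 4 lymphatic markers summed to 1.96 and 1.28 RPKM, with Ccl21a at 0 reads in both. The 6 pericyte markers summed to 30.6 and 36.1 RPKM, with Cspg4 at 13.8 and 25.5. Of 4 expressed pericyte markers 2 were called higher in SKPs (12.1% of all expressed genes were), Notch3 (2.02 and 5.13 RPKM) and Rgs5. The 1 called higher in fibroblasts (6.41% were) was Mcam (14.4 and 4.11). The part of pericytes in the members' levels was not tested. Summed levels were higher in SKPs for markers of mast cells (0.191 and 29.8 RPKM), keratinocytes (2.82 and 27.6) and macrophages (4.67 and 23.4). So were the 5 members called higher there, and the part of these cell types in those members' levels was not tested. All 4 expressed mast cell markers and all 4 expressed keratinocyte markers were called higher in SKPs (12.1% of all expressed genes were). Of 3 expressed macrophage markers 2 were, Lyz2 (1.95 and 12.7 RPKM) and Cd68 (1.62 and 8.90), and Cd14 (0.798 and 1.13) was called in neither direction. In the mast cell list Cpa3 (330 SKP reads) and Fcer1a (2 SKP reads) had 0 fibroblast reads. So did Krt1 in the keratinocyte list and Emr1 in the macrophage list, with 13 SKP reads each. Fcer1a, Krt1 and Emr1 were below the expression filter, as was the mast cell marker Ms4a2 (2 fibroblast reads and 1 SKP read). The macrophage markers Csf1r (20 and 29 reads) and Ptprc (2 and 12) and the keratinocyte marker Trp63 (29 and 94) were below it too.

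Ednrb is carried by melanocytes and by glia of the neural crest. The 7 Schwann cell and glial markers summed to 10.5 RPKM in fibroblasts and 4.43 in SKPs. Of 6 expressed ones 4 were called higher in fibroblasts (6.41% of all expressed genes were), 1 in SKPs (12.1% were) and 1 in neither. Among the 4 was Sox10 (4.05 and 0.953 RPKM), and the 1 higher in SKPs was S100b (14 and 32 reads). The 8 melanocyte markers summed to 4.87 and 19.7 RPKM, most of it from Mitf (3.18 and 17.0), which mast cells also express. Mitf alone passed the expression filter. Below the filter, Tyr had more reads in fibroblasts (51 and 28). Dct (6 and 14 reads), Pmel (14 and 38), Mlana (3 and 8) and Tyrp1 (0 and 3) had more in SKPs. Slc45a2 and Oca2 had 0 reads in both. The part of these cell types in the level of Ednrb was not tested. The 7 fibroblast markers were all above RPKM 1 in both libraries. Of them 2 were called higher in fibroblasts (6.41% of all expressed genes were), 2 in SKPs (12.1% were) and 3 in neither. Col1a1 stood at 4474 RPKM in fibroblasts and 2161 in SKPs, Vim at 2162 and 1573, Thy1 at 993.6 and 313.3, Dcn at 291.2 and 2007 and Lum at 17.1 and 895.5.

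Genes nearest in level over the 2 libraries were found by Euclidean distance of log2(RPKM + 0.1), a likeness over 2 points that many genes share. The nearest to Edn1 were Npas4 (2.79 RPKM in fibroblasts and 0.0321 in SKPs) and Ifi27l2b (2.73 and 0 reads). Nearest to Edn3 were the neurofilament gene Nefl (0.0270 and 3.85) and the fibulin gene Fbln7 (0.0186 and 4.30). For Ednra they were the cell cycle inhibitor gene Cdkn1c (11.8 and 158.9) and the prostaglandin synthase gene Ptges (16.4 and 141.2). Calcrl lay nearest to Gch1 (2.20 and 34.5) and to Apln (1.66 and 37.3), which encodes the vasoactive peptide apelin. Adm lay nearest to the early response gene Nr4a1 (28.7 and 6.96) and to Pappa (32.1 and 5.83).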

How the data were processed

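Per the file headers, the authors deposited for every gene a read count that was not normalized, with totals of 18406244 (fibroblasts) and 18949264 (SKPs). Reads were 49 bases long, and the deposited mapping tables give 81.65% and 85.13% of total reads, as percent values, as mapped to genes. The deposited RPKM values equal, within 0.1% for every listed gene, the reads scaled by the gene length in the same table and by those totals, and the deposited coverage is the percent of each gene's length that reads cover, per the file headers. The authors' comparison table gives a log2 ratio, a p-value and an FDR per gene, from an unnamed test, and only its filtered list of 2659 genes was used. All 9 members with reads are in that list. Per the submitters' processing notes the build was mm9. No source used here gives the aligner, annotation or strandedness.

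Ratios and their intervals were computed from the reads with scipy 1.17.1, numpy 2.4.6 and pandas 2.3.3 under Python 3.11.15, and plotted with matplotlib 3.10.9. The procedure was tested on simulated reads with counting error only, which leave out variation between cultures. With 1 library per group there is no test and no p-value, and a count of 0 was read against a floor of 3 reads. Every member is named; from each gene list the up to 5 expressed genes with the largest ratio and the up to 3 with the highest RPKM could be named, others being named only as part of a small count, or as marker values beside a result. A few genes that this rule names are not reported here. The members and lists were chosen with earlier results of these data known.

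The header calls the counted reads unique, but the counted totals exceed the reads mapped with a unique match, 14481657 (fibroblasts) and 14578907 (SKPs). How reads at several positions were counted is not given. Of all 49-base stretches in GENCODE transcripts, those of Edn1, Edn2, Edn3, Adm and Ramp2 were in no other gene. For Ece1, Ednrb and Calcrl 0.352% to 0.503% were shared with other genes, for Ednra 1.31% and for Ramp3 4.73%. RefSeq genes that overlap members had no row in the tables.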

Additional observations from a re-analysis of the deposited data

How the results depend on the processing

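The counts of 5 members higher in SKPs and 4 higher in fibroblasts were the same without the expression filter, on the log2(RPKM + 1) scale, under 3 other scalings, at a fold limit of 1.5, in the authors' filtered list and, added after seeing the data, with the fold limit of 2 set on the interval limit. At RPKM 5 or more they were 4 and 3, since Edn1 and Edn3 lay below it. At a fold limit of 4 the member counts were 5 and 2, without Ece1 and Ednrb. On the log2(RPKM + 1) scale the ratios of Edn1 (-1.94), Edn3 (2.26), Calcrl (3.73) and Ramp2 (2.87) moved beyond their intervals with the same direction, and the scalings shifted every log2 ratio by -0.05 to 0.01. Counts over all genes moved more. Genes higher in SKPs numbered 2197 without the filter, 828 at RPKM 5, 2255 at a fold limit of 1.5 and 705 at a fold limit of 4. Genes higher in fibroblasts numbered 478 at RPKM 5, 508 on the log2(RPKM + 1) scale, 1716 and 241 at fold limits of 1.5 and 4, and 510 with the limit set on the interval. The floor of 1 read was not run, since no member had 0 reads in a single library. No paired analysis was possible because each group had 1 library. Depth limits Edn1 and Edn3 most, with 1 read in one library.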

Other observations

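Other vasoactive systems differed in both directions. Of 40 genes for other vasoactive peptides, their receptors and related signalling, 19 were expressed, with a median log2 ratio of 0.29. Of the 19, 8 were higher in the SKP library (12.1% of all expressed genes were), 7 in the fibroblast library (6.41% were) and 4 in neither. The genes higher in fibroblasts included the alpha-1 adrenergic receptor gene Adra1d at 5.63 RPKM against 0.110 in SKPs (51.1-fold, 21.6 to 159), the vasopressin receptor gene Avpr1a at 15.4 and 1.38 RPKM (11.1-fold, 8.71 to 14.4) and the thromboxane receptor gene Tbxa2r at 25.5 and 2.42 RPKM (10.5-fold, 8.48 to 13.2). The substance P receptor gene Tacr1 had 2 fibroblast reads and 167 SKP reads, and Nppc, which encodes C-type natriuretic peptide, 1 and 37. The C-type natriuretic peptide receptor gene Npr2 was under 2-fold apart, at 29.4 RPKM in fibroblasts and 35.9 in SKPs. Of the sphingosine 1-phosphate receptors, S1pr2 was 2.22-fold higher in SKPs (30.4 and 67.5 RPKM, 2.09 to 2.35), and S1pr3 was 2.00-fold higher in fibroblasts (41.2 and 20.7 RPKM, 1.88 to 2.11), just under the fold limit of 2.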
